A study of Rattus norvegicus with 8 samples.

Results

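BMP, TGF-beta, activin and Smad genes were examined in rat cultures of oligodendrocyte precursor cells (OPCs), glial cells that divide and give rise to the cells that make myelin. The rows were taken by gene symbol alone: the ligand genes Bmp, Gdf, Tgfb and Inhb, the receptor genes Bmpr, Acvr and Tgfbr, the Smad genes, and the antagonist genes Nog, Chrd and Fst. The symbols matched 50 of the 32883 rows of the authors' table. They were prepared from cerebral cortex of Sprague Dawley rats aged 1 to 2 days. Mixed glia were raised in DMEM with 20% serum, and the cells that did not adhere were then kept for 4 to 5 days in Neurobasal medium with 2% B27 and with PDGF and FGF at 10 ng/ml each. There were 4 libraries from male and 4 from female animals, and all 8 had the same medium, so the growth factors are shared by both groups. The labels' protocol names no added BMP or TGF-beta, and whether the serum or B27 held either was not examined here. The labels do not say whether the libraries of a sex came from separate animals or litters, so the p-values below rest on sample-to-sample spread alone, and that spread could be technical.

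Ligands of this family bind a pair of transmembrane kinases, a type II receptor that activates a type I receptor. The type I receptor phosphorylates receptor-regulated Smads. Smad1, Smad5 and Smad9 carry BMP signals and Smad2 and Smad3 carry TGF-beta and activin signals, and both kinds enter the nucleus with the common partner Smad4. Smad6 and Smad7 inhibit the pathway, and Noggin, Chordin and Follistatin trap ligands outside the cell. BMPs are known to hold back oligodendrocyte differentiation and to favour an astrocyte fate, while TGF-beta and activin ligands have been linked to oligodendrocyte maturation.

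Levels are the authors' FPKM, which are per transcript length and library size, so genes can be set side by side. Summed FPKM per library were 648383 to 773919, and the count-based depth is unknown. The 10 highest genes of a library held 20.1% to 21.3% of that sum in male and 24.5% to 28.5% in female cultures. The part of this shift in the differences below was not tested. Steps between low values gave depths of 0.303 to 1.00 relative to male 1, the deepest library. The labelled cell type showed in its markers: 9 OPC marker genes summed to 2188 to 2342 FPKM in male and 2608 to 2808 FPKM in female cultures. Differentiating oligodendrocyte markers (12 genes) summed to 832 to 987 FPKM in male and 1199 to 1468 FPKM in female cultures, and 5 of the 12 were called, all higher in female cultures (Gpr17, Myrf, Bcas1, Cnp and Sirt2). Of the 9 OPC markers 4 were called, also higher in female cultures. That is 44.4% of the OPC and 41.7% of the differentiating oligodendrocyte markers, against 2.89% of all tested genes called higher in female cultures. The part of either marker group in the differences below was not tested. Astrocyte markers (10 genes, none called, 4 of the 8 tested at an unadjusted limma-trend p under 0.05) summed to 225 to 246 FPKM in male and 225 to 254 FPKM in female cultures. Microglial markers (15 genes) summed to 47.1 to 64.7 FPKM in male and 179 to 225 FPKM in female cultures. None of 10 fibroblast or mural markers and none of 7 endothelial markers reached a mean of 1 FPKM.

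Receptor and Smad genes held most of the higher levels among the 50 genes, and the antagonist genes Nog, Chrd and Fst were low. Of the 50 genes, 12 averaged 10 FPKM or more across the 8 cultures and 12 more lay between 1 and 10 FPKM. Those 24 were tested for a difference between the sexes. The other 26 stayed under a mean of 1 FPKM, and 12 of these were listed at 0 in every library. Smad4 was highest (mean 40.6 FPKM), followed by the BMP type I receptor gene Bmpr1a (37.3 FPKM), Smad5 (25.6 FPKM), Acvr2a (21.0 FPKM), Smad1 (20.8 FPKM) and Bmpr2 (20.5 FPKM). The mean of Smad1 lay within the spread of its neighbours Acvr2a and Bmpr2 in that order.

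**Figure D1:**
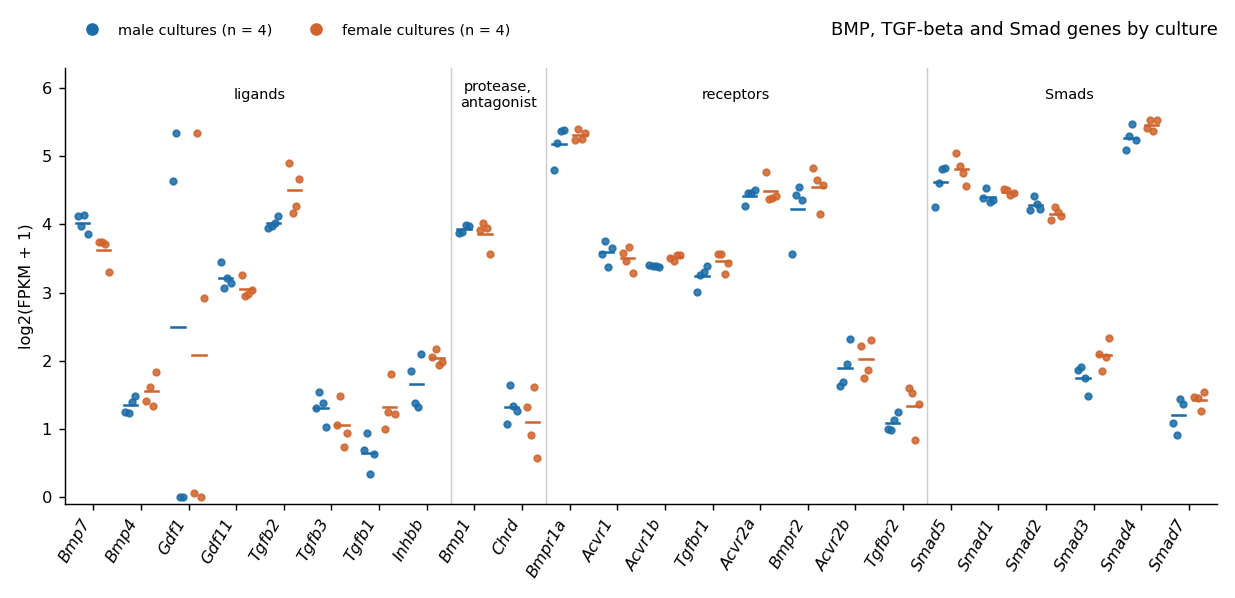
Level of each of the 24 tested genes in each culture, as log2(FPKM + 1), with a point per library and a bar at the mean of each sex (n = 4). Smad4 and Bmpr1a lie highest, most genes overlap between the sexes, and Gdf1 alone spreads from near 0 to 39.5 FPKM within each sex.

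None of the 24 tested genes passed the test between male and female cultures (limma-trend on log2(FPKM + 1), Benjamini-Hochberg adjusted over 11263 genes, threshold 0.05). Over all tested genes 6.04% were called, made up of 3.14% higher in male and 2.89% higher in female. At an unadjusted p under 0.05 the count was 3 of 24 (Bmp7, Tgfb1 and Tgfb2), where 21.2% of all tested genes were past that mark. For 4 of the 24 the male and female values did not overlap, 1 with all male values above (Bmp7) and 3 with all female values above (Tgfb1, Tgfb2 and the activin receptor gene Acvr1b). Over all tested genes 14.0% did not overlap, 7.26% with male and 6.77% with female values above, so neither count stood far from the background. A positive difference means more in male cultures; it is on the log2(FPKM + 1) scale, which understates the change of low genes. Their median was -0.13 over the 24 genes, with 16 negative and 8 positive, against -0.0038 and 5706 negative of 11263 for all tested genes. The filter used the mean of both sexes, and Tgfb1 passed it only through its female values.

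Missing the threshold does not show that the levels were alike, so 95% intervals of the difference were computed. For 12 of the 24 genes the interval lay within 1.5-fold of FPKM + 1 in both directions, a share of 50% against 66.5% of all tested genes. For low genes this bound allows a larger fold in FPKM itself. The narrowest was that of Smad1 (-0.26 to 0.10), and the widest that of Gdf1 (-4.10 to 4.94).

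**Figure D2:**
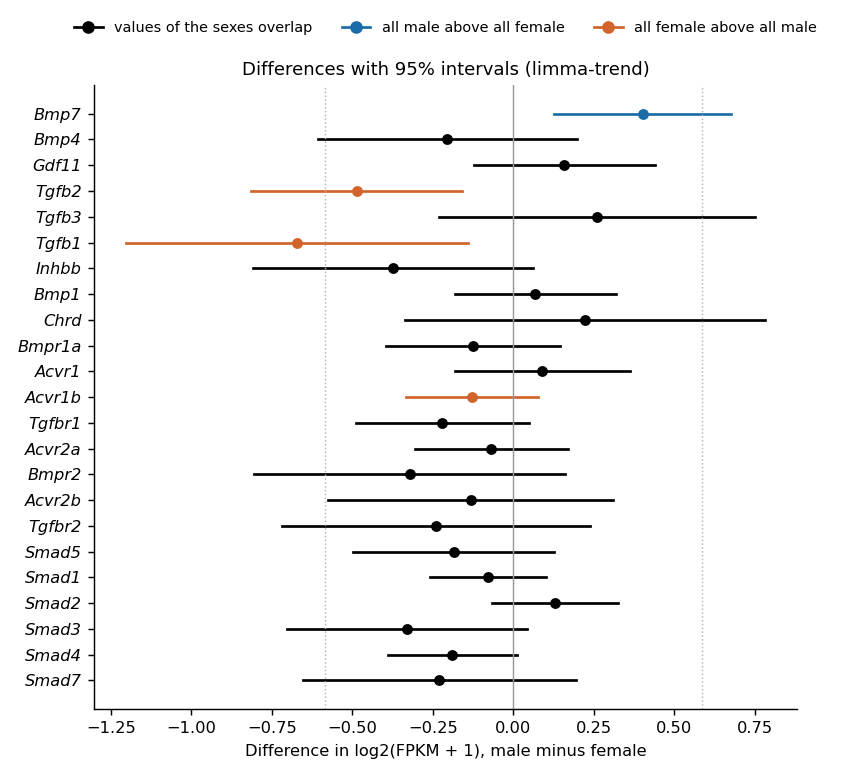
Difference in log2(FPKM + 1), male minus female, with 95% intervals for 23 tested genes (Gdf1, from -4.10 to 4.94, is left out for scale), where dotted lines mark 1.5-fold of FPKM + 1. The intervals of Bmp7, Tgfb1 and Tgfb2 exclude 0 before adjustment over all genes, and none of the 23 passed after it.

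Among the ligands, Tgfb2 and Bmp7 had the highest means, setting aside Gdf1, whose row is uncertain and is described below. Bmp7 (ENSRNOG00000053384) encodes a BMP that acts through the type I receptors Bmpr1a and Acvr1. It stood at 16.5, 14.8, 16.5 and 13.5 FPKM in the male cultures 1 to 4 and at 12.4, 12.3, 12.1 and 8.89 FPKM in the female cultures 1 to 4. All male values lay above all female values, with female 4 the lowest. The means were 15.3 ± 1.44 (SD, n = 4) against 11.4 ± 1.71 FPKM, a difference of 0.40 ± 0.12 (SE; 95% interval 0.13 to 0.68), and the gene missed the threshold (limma-trend adjusted p = 0.0882). With relative depth as a covariate the difference was 0.39 (limma-trend adjusted p = 0.187). Bmp7 made up 67.6% to 86.4% of the summed FPKM of the 10 BMP ligand genes in every library.

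The other BMP genes were low. Bmp4, a BMP best known for pushing precursors towards astrocytes, stood at 1.38, 1.36, 1.64 and 1.81 FPKM in male and 1.65, 2.06, 1.53 and 2.58 FPKM in female cultures, which overlap (difference -0.20 ± 0.18, limma-trend adjusted p = 0.579). Bmp3 ranged from 0.361 to 1.31 FPKM and Bmp2 from 0.238 to 1.02 FPKM. Bmp8a and Bmp8b were above 0 in 1 male library each, and Bmp5, Bmp6, Bmp10 and Bmp15 were listed at 0 in all 8.

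Tgfb2 (ENSRNOG00000002418) encodes a secreted TGF-beta isoform. Its level was 14.4, 14.7, 15.2 and 16.3 FPKM in the male cultures 1 to 4 and 28.8, 17.1, 18.2 and 24.4 FPKM in the female cultures 1 to 4. The male libraries lay close together, and female 1 and female 4 were the high ones among female cultures. The means were 15.2 ± 0.835 against 22.1 ± 5.50 FPKM (difference -0.49 ± 0.15, 95% interval -0.81 to -0.16, limma-trend adjusted p = 0.0845). Without female 2 the difference was -0.59 ± 0.14 and passed the threshold (adjusted p = 0.0432). With each of the other 7 libraries left out in turn it did not pass (adjusted p up to 0.208). Nor did it pass with relative depth as a covariate (difference -0.39, adjusted p = 0.231) or with no filter (adjusted p = 0.133). Tgfb2 held 83.8% to 93.3% of the summed FPKM of the 3 TGF-beta genes. The ratio of Tgfb2 to Bmp7 was 0.876, 0.996, 0.918 and 1.21 in male and 2.32, 1.38, 1.51 and 2.75 in female cultures. This ratio was formed after the values were seen and was not tested.

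Tgfb1 (ENSRNOG00000020652), the isoform typical of immune cells, was near the limit of what these libraries measure. It stood at 0.609, 0.918, 0.264 and 0.547 FPKM in male and at 1.00, 1.39, 2.48 and 1.33 FPKM in female cultures. The female values were all higher, female 3 most of all (means 0.585 ± 0.268 against 1.55 ± 0.644 FPKM, difference -0.67 ± 0.24, limma-trend adjusted p = 0.136). Beside it, all 14 tested microglial markers had a negative difference (median -1.53). Of the 14, 11 were called, C1qb and Lyz2 among them (78.6%, against 2.89% of all tested genes called higher in female cultures). Cx3cr1 (called), P2ry12 and Trem2 had male means of 0.475, 0.918 and 0.871 FPKM. They entered the test only through their female values. Of 15 microglial markers in the table, Ptprc was the one under a mean of 1 FPKM. The part of such cells in the Tgfb1 values was not tested, and in bulk RNA fewer cells of a type and less RNA per cell cannot be told apart. Tgfb3 overlapped between the sexes (1.51 ± 0.370 against 1.11 ± 0.479 FPKM, adjusted p = 0.559).

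**Figure D3:**
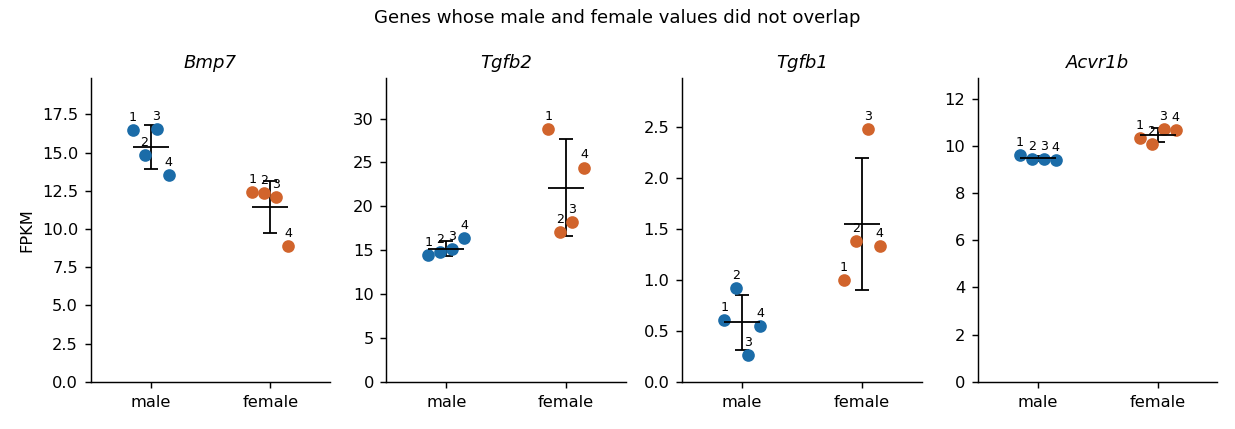
FPKM in each culture for the 4 tested genes whose male and female values did not overlap, with the library number beside each point and the mean and SD (n = 4) as bars. Bmp7 lies between 13.5 and 16.5 in male and 8.89 and 12.4 in female cultures, and Tgfb2, Tgfb1 and Acvr1b lie higher in female cultures.

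The sequences upstream of both TGF-beta genes that stood apart are shown with the Smad half-site GTCT, the short word that Smad3 and Smad4 are known to bind. Each is the 250 bases before the gene's start in RefSeq (build GRCr8), written 5′ to 3′ on the gene's strand, with GTCT or its reverse complement AGAC in capitals. The window of Tgfb2 is chr13:100792686-100792935 on the minus strand and holds 2 half-sites. That of Tgfb1 is chr1:90324062-90324311 on the plus strand and holds 1.
Tgfb2: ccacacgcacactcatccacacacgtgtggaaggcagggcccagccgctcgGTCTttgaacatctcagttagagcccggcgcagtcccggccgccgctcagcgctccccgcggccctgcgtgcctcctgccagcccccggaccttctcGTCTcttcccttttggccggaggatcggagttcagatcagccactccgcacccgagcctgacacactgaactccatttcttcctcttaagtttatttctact
Tgfb1: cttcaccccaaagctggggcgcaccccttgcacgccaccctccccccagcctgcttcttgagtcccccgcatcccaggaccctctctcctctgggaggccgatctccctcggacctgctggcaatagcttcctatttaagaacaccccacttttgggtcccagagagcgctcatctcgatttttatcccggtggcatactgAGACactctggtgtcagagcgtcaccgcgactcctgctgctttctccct
Such a short word is common. Searched on both strands, it was present in 83.9% of 27457 promoter windows of this length, in 80.7% of the 8294 windows matched to tested genes and in 13 of the 21 windows found for the 24 genes (61.9%). The palindrome GTCTAGAC, a pair of half-sites that overlaps the shorter word, was in 0.186% of all windows and in none of the 21. The word GGCGCC, the GC-rich core of BMP response elements, is its own reverse complement. It was in 9.24% of all windows, in 18.5% of those of tested genes and in 6 of the 21 (28.6%; Acvr1b, Chrd, Inhbb, Smad2, Smad7 and Tgfbr1). These are matches of letters and do not show binding.

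Among the GDF ligands the row of Gdf1 (ENSRNOG00000020142) behaved unlike any other. It was listed at 24.0, 39.5, 0.00359 and 0.00386 FPKM in the male cultures 1 to 4 and at 0.0412, 39.4, 0.00371 and 6.54 FPKM in the female cultures 1 to 4. High and near-zero libraries occurred in both sexes, and its within-sex SD on the log2 scale, 2.73, compares with a median of 0.183 over all tested genes. The row of Cers1 (ENSRNOG00000062030), a ceramide synthase gene, was its mirror image, at 19.0, 0.0178, 40.9 and 36.9 FPKM in male and 36.3, 0.0175, 44.3 and 32.4 FPKM in female cultures. Summed per library, both rows gave 43.0, 39.5, 40.9 and 36.9 FPKM in male and 36.3, 39.4, 44.3 and 39.0 FPKM in female cultures. The sum thus stayed between 36.3 and 44.3 FPKM in all 8 (40.1 ± 2.58 against 39.7 ± 3.33 FPKM, exact two-sided permutation test over 70 assignments, p = 0.857). It was formed after the values were seen. RefSeq gives both genes the same start and end on the same strand of GRCr8, and so the same upstream sequence, shown because it belongs to both rows (chr16:19146481-19146730, minus strand, written as above, with 4 half-sites in capitals).
Gdf1 and Cers1: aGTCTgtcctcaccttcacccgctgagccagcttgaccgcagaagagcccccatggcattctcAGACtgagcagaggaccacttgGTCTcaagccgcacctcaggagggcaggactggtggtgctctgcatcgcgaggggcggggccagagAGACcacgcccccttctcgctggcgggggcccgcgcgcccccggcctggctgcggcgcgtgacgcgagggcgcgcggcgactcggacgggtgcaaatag
The level of Gdf1 by itself is therefore uncertain, and the sources used here do not say how the authors divided reads between both genes.

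**Figure D4:**
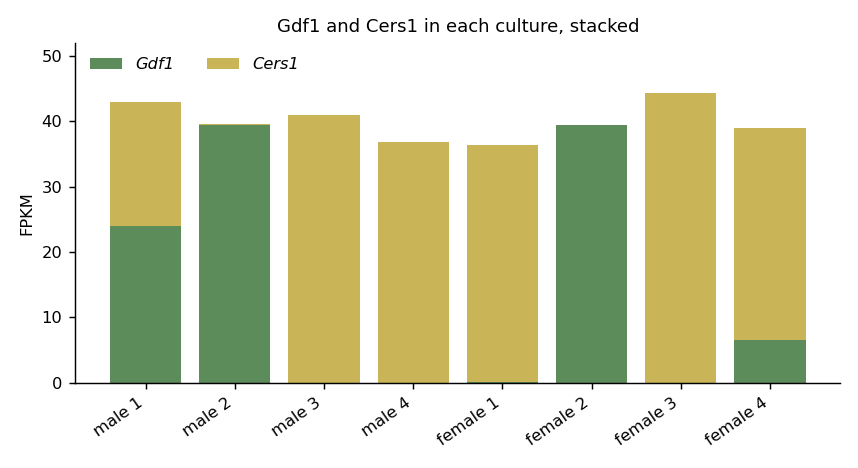
FPKM of Gdf1 (lower part of each bar) and Cers1 (upper part) in each of the 8 cultures. The split moves from nearly all Gdf1 in male 2 and female 2 to nearly all Cers1 in male 3, male 4, female 1 and female 3, while the total stays between 36.3 and 44.3 FPKM.

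Gdf11, which signals through activin receptors and Smad2 and Smad3, was the other GDF gene above a mean of 1 FPKM. It stood at 9.87, 7.37, 8.30 and 7.79 FPKM in male and 8.60, 6.70, 6.88 and 7.25 FPKM in female cultures, which overlap (difference 0.16 ± 0.13, limma-trend adjusted p = 0.533). Gdf10 reached at most 0.925 FPKM and Gdf15, a stress-induced ligand, at most 0.540 FPKM. Gdf9 was above 0 in 1 library and Gdf6 in 2, and Gdf2, Gdf3, Gdf5 and Gdf7 were listed at 0 in all 8. Of the activin subunits, Inhbb stood at 2.58, 1.60, 1.5 and 3.3 FPKM in male and 3.14, 3.52, 2.84 and 2.93 FPKM in female cultures. Male 2 and male 3 were low, and the difference did not pass (-0.37 ± 0.20, adjusted p = 0.315). Inhba stayed at or under 0.152 FPKM, and Inhbc and Inhbe were listed at 0. Bmp1, which despite its name is a metalloprotease that processes procollagen and frees BMPs from Chordin, was at 14.3 ± 0.617 against 13.7 ± 1.96 FPKM (adjusted p = 0.788).

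The 3 secreted antagonists were scarce and together reached 1.49 to 3.35 FPKM per library. Chrd, the gene of Chordin, stood at 1.10, 2.11, 1.52 and 1.4 FPKM in male and at 1.49, 0.883, 2.05 and 0.486 FPKM in female cultures (difference 0.22 ± 0.25, limma-trend adjusted p = 0.673). Nog, which encodes Noggin, was at 1.51, 1.24, 0.712 and 1.23 FPKM in male and at 0, 0.747, 0.836 and 1.03 FPKM in female cultures, and its mean of 0.912 FPKM kept it out of the test. Fst, which encodes Follistatin, was above 0 only in male 1 and male 3, at 0.214 and 0.279 FPKM.

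Receptor levels differed more between genes than between sexes. Bmpr1a, the broadly expressed BMP type I receptor, was at 26.7, 35.7, 40.5 and 40.7 FPKM in male and 36.8, 41.3, 37.2 and 39.7 FPKM in female cultures. Male 1 was the low one, and the means of 35.9 ± 6.52 and 38.7 ± 2.14 FPKM did not differ beyond the spread (limma-trend adjusted p = 0.620). Its close relative Bmpr1b stayed between 0 and 0.830 FPKM. Acvr1, a type I receptor used by Bmp7, had 11.1 ± 1.33 against 10.4 ± 1.26 FPKM (adjusted p = 0.736), and Acvr1c was listed at 0.

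Acvr1b (ENSRNOG00000006934), the main type I receptor for activins, was the steadiest of the tested genes. It stood at 9.61, 9.45, 9.44 and 9.39 FPKM in male and 10.3, 10.1, 10.7 and 10.7 FPKM in female cultures. The groups did not overlap, yet the gap was small (9.47 ± 0.0975 against 10.5 ± 0.294 FPKM). Its within-sex SD of 0.028 on the log2 scale was lower than that of nearly all tested genes. The moderated test, which pulls such a spread towards that of other genes, gave -0.13 ± 0.09 and an adjusted p of 0.481 (limma-trend). Tgfbr1, the TGF-beta type I receptor, stood at 7.08, 8.54, 8.84 and 9.46 FPKM in male and 10.9, 10.8, 8.68 and 9.81 FPKM in female cultures, with female 3 inside the male range (difference -0.22 ± 0.12, adjusted p = 0.337).

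Type II receptors were led by Acvr2a and Bmpr2. Acvr2a, shared by activins and BMPs, stood at 18.3, 21.0, 21.0 and 21.6 FPKM in male and 26.3, 19.8, 20.0 and 20.4 FPKM in female cultures. Female 1 was apart from the rest (difference -0.07 ± 0.11, limma-trend adjusted p = 0.778). Bmpr2, the BMP type II receptor, stood at 10.9, 20.5, 22.4 and 19.6 FPKM in male and 27.3, 24.1, 16.7 and 22.8 FPKM in female cultures. Its lowest value in each sex was that of the deepest library of that sex, male 1 and female 3. The difference of -0.32 ± 0.22 (adjusted p = 0.446) was -0.10 without male 1 and -0.08 when relative depth entered the fit as a covariate, and the part of depth in it was not tested further. Acvr2b was lower, at 2.80 ± 0.862 against 3.14 ± 0.765 FPKM. Tgfbr2, without which TGF-beta isoforms do not signal, was lower still, at 0.997, 0.971, 1.2 and 1.38 FPKM in male and 2.02, 1.88, 0.782 and 1.58 FPKM in female cultures (difference -0.24 ± 0.22, adjusted p = 0.584). The co-receptor gene Tgfbr3 had a mean of 0.762 FPKM.

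By mean level the Smad genes ran from Smad4 through Smad5, Smad1 and Smad2 to Smad3 and Smad7. Smad4, the common partner, stood at 33.0, 38.3, 43.5 and 36.9 FPKM in male and 41.9, 45.1, 40.4 and 45.5 FPKM in female cultures. Male 3 lay inside the female range, and the difference of -0.19 ± 0.09 did not pass (limma-trend adjusted p = 0.263). Smad4 held 35.2% to 40.7% of the summed FPKM of the 8 Smad genes.

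Of the BMP branch, Smad5 stood at 18, 23.4, 27 and 27.3 FPKM in male and 32.2, 27.9, 26.1 and 22.7 FPKM in female cultures. Its values overlapped, with male 1 the low one (difference -0.19 ± 0.14, limma-trend adjusted p = 0.505; -0.06 without male 1). Smad1 was level across all 8, at 20.0, 22.1, 19.1 and 19.5 FPKM in male and 21.9, 21.8, 20.7 and 21.0 FPKM in female cultures (adjusted p = 0.642). Smad9 was listed at 0 everywhere.

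Of the TGF-beta and activin branch, Smad2 stood at 17.5, 20.3, 18.6 and 17.8 FPKM in male and 15.8, 18.1, 17.2 and 16.4 FPKM in female cultures, which overlap (difference 0.13 ± 0.09, limma-trend adjusted p = 0.458). Smad3 was far below its partner, at 2.64, 2.76, 2.36 and 1.78 FPKM in male and 3.26, 2.59, 3.16 and 4.03 FPKM in female cultures. The difference of -0.33 ± 0.17 did not pass (adjusted p = 0.295). Smad1, Smad5 and Smad9 made up 65.4% to 73.9% of the receptor-regulated Smad transcripts per library. The inhibitory Smads were low: Smad7, itself induced by the pathway, stood at 1.12, 0.881, 1.71 and 1.58 FPKM in male and 1.76, 1.73, 1.39 and 1.92 FPKM in female cultures (adjusted p = 0.551), and Smad6 was above 0 in male 1 and female 4 only, at 0.166 and 0.310 FPKM.

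Other genes of the pathway were taken from lists by role, of which 114 of 117 symbols were found and 64 tested. Of these, 7 were called, 5 of them male-high and 2 female-high (10.9%, against 6.04% of all tested genes), and the median difference was -0.04. The lists were chosen with earlier results of these data known, so the shares called, here and below, describe the lists and test nothing. No further secreted antagonist (5 tested) and no further receptor or co-receptor (5 tested) was called. At an unadjusted p under 0.05 there was 1 such antagonist, Twsg1 (difference 0.21 ± 0.08, limma-trend adjusted p = 0.148), and no receptor. The highest of these were the antagonist gene Nbl1 (42.1 ± 3.62 against 40.1 ± 3.25 FPKM) and the BMP co-receptor gene Rgma (9.32 ± 0.923 against 8.48 ± 0.474 FPKM). The ligand genes Nodal and Amh reached at most 0.194 and 0.136 FPKM, and Mstn was listed at 0.

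A list of genes for the latency and activation of ligands, which mixes both roles, held 8 tested genes. Of these, 2 were called, both higher in female cultures (25% of the list, against 2.89% of all tested genes called in that direction). The difference was negative for 6 of the 8 (75%, against 50.7% of all tested genes; median -0.39). Pcsk6, a proprotein convertase that can cleave ligand precursors, stood at 9.97, 9.29, 9.24 and 9.86 FPKM in male and 21.4, 15.8, 12.8 and 17.4 FPKM in female cultures. All female values were above all male ones (difference -0.73 ± 0.14, limma-trend adjusted p = 0.0119), and the call held with each library left out in turn (adjusted p up to 0.0433). Ltbp3, a latent TGF-beta binding protein gene, was at 14.3 ± 0.407 against 18.8 ± 2.08 FPKM (-0.37 ± 0.10, adjusted p = 0.0493). In 7 of 8 fits that left out 1 library it was no longer called (adjusted p up to 0.145), the exception being female 3. Nor was it called with no filter, after quantile normalization or when depth entered the fit (adjusted p 0.0507 to 0.139). Itgav, the gene of the integrin subunit that activates latent TGF-beta, was the highest of the list and was not called (91.6 ± 19.3 against 122 ± 14.6 FPKM, adjusted p = 0.147).

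Of 29 tested regulators inside the cell 1 was called (3.45%, against 6.04% of all tested genes). Fkbp1a, whose product FKBP12 binds the inactive type I receptor, was at 625, 606, 660 and 618 FPKM in male and 352, 355, 397 and 346 FPKM in female cultures (difference 0.79 ± 0.06, limma-trend adjusted p = 7.33e-05). It was the highest of its list, and its product has other partners, such as calcium release channels. The other 28, among them Ski, Smurf1, Smurf2 and Zeb2, were not called. A negative difference was found for 24 of the 29 (82.8%, against 50.7% of all tested genes), with a median of -0.09.

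Among 17 tested target genes 4 were higher in male cultures and none in female ones (23.5% of the list, against 3.14% of all tested genes called higher in male cultures; median difference 0.29). The direct BMP targets of the Id family, which inhibit differentiation factors, were not called. Id2 stood at 75.5 ± 3.92 against 75.1 ± 9.28 FPKM, Id1 at 6.87 ± 1.05 against 6.47 ± 1.67 FPKM and Id3 at 2.41 ± 0.715 against 2.72 ± 0.969 FPKM. Id4 was at 2.74 ± 0.724 against 4.19 ± 0.83 FPKM (difference -0.48 ± 0.19, limma-trend adjusted p = 0.164). Tgfbi, a gene named for its induction by TGF-beta, had a mean of 0.199 FPKM.

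The 4 called targets also answer to other signals. Cdkn1a, a cell cycle inhibitor gene that p53 induces too, was at 242 ± 19.3 against 150 ± 19.1 FPKM (difference 0.69 ± 0.09, limma-trend adjusted p = 0.00252). Dlx1, a homeobox gene of interneurons, was at 4.53 ± 0.678 against 1.10 ± 0.484 FPKM (1.41 ± 0.20, adjusted p = 0.00351). Neither lost its call in any of 8 fits that left out 1 library. Of 10 tested neuron markers 4 were called higher in male cultures, Syt1, Stmn2, Gad1 and Gad2 (40%, against 3.14% of all tested genes). The difference was positive for 6 of the 10 and negative for 4 (Rbfox3, Map2, Tubb3 and Nefm, none called). The 12 markers summed to 286 to 306 FPKM in male and 248 to 356 FPKM in female cultures. Their part in the Dlx1 values was not tested. Junb, an AP-1 gene, was at 6.83 ± 0.639 against 3.54 ± 1.22 FPKM (0.82 ± 0.19, adjusted p = 0.0263) and lost its call in 5 of 8 fits with a library left out and when depth entered the fit (adjusted p up to 0.0881). Tagln, typical of smooth muscle, measured 2.25, 3.66, 2.05 and 2.42 FPKM in male and 0, 0.699, 0.686 and 0.895 FPKM in female cultures (1.22 ± 0.25, adjusted p = 0.0182). Its female mean of 0.570 FPKM was under the filter, so it entered the test only through its male values. It lost its call without male 2 or male 4, at a pseudocount of 0.1 and when depth entered the fit (adjusted p up to 0.0688). The fibroblast and mural markers Col1a2, Col3a1, Dcn and Slc6a13 were listed at 0 in all 8 libraries. Acta2, a smooth muscle actin gene of the same list, was at 1.79, 0.294, 1.69 and 2.04 FPKM in male and 0.537, 0, 0.166 and 0.305 FPKM in female cultures, which overlap, and was too low to be tested. Its part in the Tagln values was not tested. The whole list of 10 summed to 1.4 to 2.79 FPKM in male and 0.144 to 2.67 FPKM in female cultures.

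**Figure D5:**
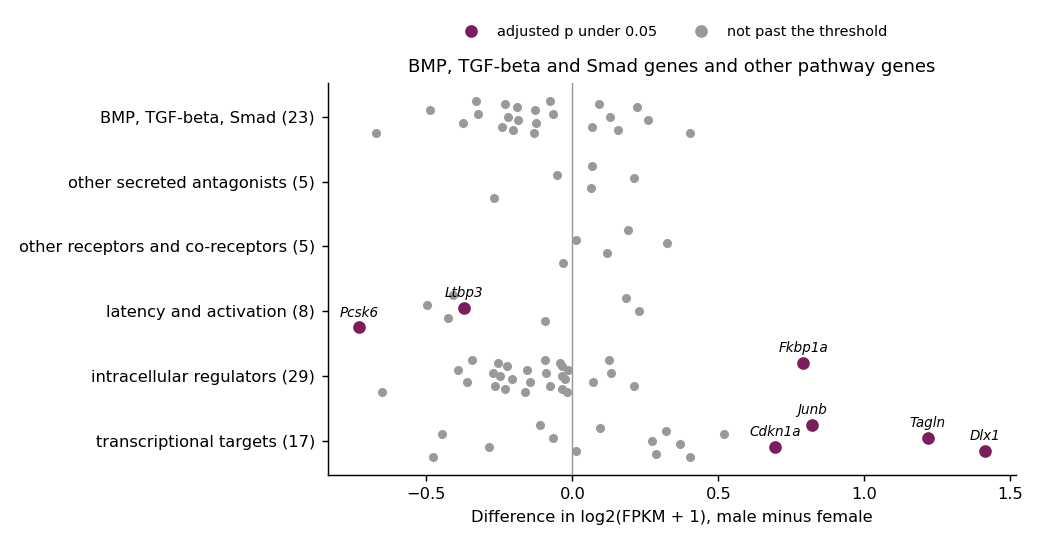
Difference in log2(FPKM + 1), male minus female, for 23 tested BMP, TGF-beta and Smad genes (Gdf1 left out) and 64 other tested pathway genes, a point per gene with its height within a row set for legibility only. Called genes are dark and named: 5 lie to the right (higher in male cultures), Pcsk6 and Ltbp3 lie to the left, and none is in the top row.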

How the data were processed

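RNA was sequenced from 8 libraries, 4 per sex, with a strand-specific Agilent SureSelect kit, per the labels' protocols. The authors deposited FPKM values per gene, per the file headers. Per the submitters' processing notes, Trimmomatic and FastQC were used. For the aligner, quantifier, genome build, annotation and use of strand, nothing is stated in the sources used here. FPKM holds no counts and falls for all genes when a few abundant ones rise, so no interval from counts was given. Sexes and replicate numbers came from the titles.

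From these, log2(FPKM + 1) was computed. The 11263 genes averaging 1 FPKM or more were tested in limma 3.58.1 under R 4.3.3 (limma-trend, robust eBayes), Benjamini-Hochberg adjustment over all of them and a threshold of 0.05. The procedure was tested on simulated data. Relative depth was the commonest ratio of values between libraries in low genes. The genes and lists were chosen with earlier results of these data known. By a fixed rule, every gene averaging 1 FPKM or more was named, with values per culture where called, without overlap or highest of its role. The rule also named called genes and the highest gene of each pathway list. Other names and other values per culture (Cers1, Twsg1, the Id genes and the rest) were added after values were seen. RefSeq promoter windows (GRCr8) were found by symbol for 40 of the 50 genes. Alternatives were other pseudocounts (0.1 and 5), filters (none, and 5 FPKM), quantile normalization, a replicate block, moderation without robustness, depth as a covariate, and libraries left out.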

Additional observations from a re-analysis of the deposited data

Results flagged for a closer look

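In each sex, the highest and lowest library of the 24 tested genes and the 7 called pathway genes were compared with the other 3, and 4 of 62 groups held a library set far from its neighbours. Such a gap is expected in about 1 in 20 groups of this size when values vary evenly. Bmp7 in female 4 stood at 8.89 FPKM, with the other female libraries between 12.1 and 12.4 FPKM. Acvr2a in female 1 stood at 26.3 FPKM, against 19.8 to 20.4 FPKM in the others. Gdf1 in female 2 stood at 39.4 FPKM, against 0.00371 to 6.54 FPKM, the split with Cers1 described above. Junb in male 4 stood at 7.78 FPKM, against 6.44 to 6.61 FPKM.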

How the results depend on the processing

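Deviations of each gene from its sex mean, in log2(FPKM + 1), were correlated between male and female cultures over 11263 genes. Same-numbered cultures gave -0.085, 0.077, -0.064 and 0.036, while male 1 and female 3 gave 0.242. These values showed no pairing by replicate number, and with so few libraries they cannot exclude it. With the replicate block, 397 of all tested genes were called in place of 680, 0 of the 24 BMP, TGF-beta and Smad genes and 6 of the 64 other pathway genes (Ltbp3 was lost, adjusted p = 0.103). With relative depth as a covariate the counts were 367, 0 and 4. Leaving out 1 library at a time gave 296 to 808 calls among all genes (lowest without male 3, highest without female 3), 0 to 1 among the 24 (Tgfb2, without female 2) and 4 to 8 among the other pathway genes. The causes were not tested.

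Of 397 values for the 24 genes under alternatives, 387 kept direction and side of the threshold, 1 passed it and 9 turned sign, all in genes with no call. Gdf1 gave -0.99 without male 1 and female 3 together and -0.53 to 1.505 with 1 library left out. Leaving out 1 library gave -0.031 to 0.12 for Bmp1, -0.19 to 0.0063 for Bmpr1a and -0.11 to 0.026 for Acvr2a, and the depth covariate gave 0.018 for Acvr2a. Of 117 values for the 7 called pathway genes 22 lost the call. Tgfb1 could not be tested without female 3, which took its mean under 1 FPKM. FPKM without counts limits what can be said of genes near 1 FPKM.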

Other observations

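Male 1 and female 3, the deepest libraries of their sex, were often its lowest for the BMP, TGF-beta and Smad genes. Over all tested genes the female library most often lowest was female 1 (28.9%), the one of least relative depth (0.303). Male 1 was the lowest male library for 11 of the 24 tested BMP, TGF-beta and Smad genes (45.8%, against 32.4% of all tested genes), and female 3 the lowest female library for 10 (41.7%, against 25.9%). Both held for Smad4, Tgfbr1 and Bmpr2 (12.5%, against 12.4% of all tested genes).

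Map3k7, the gene of the kinase TAK1 that carries TGF-beta and BMP signals beside the Smads, was listed at a mean of 0.152 FPKM, while its partner genes Tab1 and Tab2 had means of 17.7 and 30.9 FPKM. These 3 genes were chosen after their values were seen. Map3k7 ran from 0.184 to 0.413 FPKM in male and from 0 to 0.0862 FPKM in female cultures and was too low to be tested. How reads were assigned to its row is not stated in the sources used here, so the low value does not show a silent gene.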
